A study of Arabidopsis thaliana with 77 samples.

Results

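Single-base variant calls of Arabidopsis thaliana were examined at 2 places: the mitochondrial contig, and a window on chromosome 2 from 3200000 to 3700000 (TAIR10). The window holds the nuclear insertion of mitochondrial DNA and takes in the approximate position of the centromere (3.6 Mb). Every call on the mitochondrial contig and every call in that window was taken, whatever its values. Keyed by chromosome, position and called base, the 5 libraries held 166 mitochondrial variants and 567 window variants. Together these were 733 of 15891 variants in all. The places were chosen by position after the depth and genotype of their calls had been seen, so depth, genotype and number are described here with no test.

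The libraries are part of a series of 77 samples on mutants of RNA silencing and of DDM1, a chromatin remodeller needed for DNA methylation over transposons. Whole-genome libraries of paired Illumina reads came from rosette leaves of soil-grown Columbia plants aged 4 weeks. The first has the label rdr1 rdr2 rdr6, and the other 4 are episuppressor lines named 2-69, 2-20, 3-72 and 3-75, whose genotype is given as rdr1 rdr2 rdr6 ddm1. Each line has 1 library, so a value describes a library, and means over the 4 lines are given with their SD. All 5 libraries share the rdr1 rdr2 rdr6 background by label. The library with the rdr1 rdr2 rdr6 label is heterozygous for a base change in DDM1, with 9 reads for G26652152A and 10 for the reference base, that is homozygous in the 4 lines, so it is named by its label only.

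Plant mitochondria have a genome of their own that is present in many copies per cell, so total leaf DNA holds more of it than of a single-copy nuclear locus. Pieces of organelle DNA have entered plant nuclear genomes many times, and the copy near the centromere of Arabidopsis chromosome 2 in Columbia is a well-known large case. It covers most of the mitochondrial genome, and the assembled version is known to be shorter than the insertion in the plant. Nuclear cytosines in plants are methylated in CG, CHG and CHH contexts, where H is any base but G.

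The RefSeq mitochondrial sequence was aligned to the window to find the insertion. It lay at chr2:3239038-3509765, a span of 270.728 kb, of which 99.6% aligned in 19 stretches at 99.56% to 99.97% identity. These stretches covered 72.2% of the mitochondrial sequence. The nuclear and mitochondrial sequences differed by substitution at 185 positions of the aligned part, or 0.686 per kb. The alignment uses no call, so it gives an independent base to set beside each called base.

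The 5 insertion variants of highest depth among those called in all 5 libraries, at least 10 kb apart, serve as examples. They are not typical in genotype: all 5 were homozygous in every library, and 38 of the 178 insertion variants called in all 5 libraries were. Each is printed with 30 bases on either side, from the plus strand of chromosome 2 and from the aligned mitochondrial stretch turned to the same strand, both from RefSeq (assembly TAIR10.1 for chromosome 2, whose bases match the build of the files). Capitals mark the base that differs.
Chr2_3438343 nuclear: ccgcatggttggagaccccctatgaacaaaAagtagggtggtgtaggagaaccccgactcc
Chr2_3438343 mitochondrial: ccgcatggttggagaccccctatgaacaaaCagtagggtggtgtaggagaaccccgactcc
Chr2_3498459 nuclear: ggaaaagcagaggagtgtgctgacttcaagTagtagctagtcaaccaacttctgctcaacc
Chr2_3498459 mitochondrial: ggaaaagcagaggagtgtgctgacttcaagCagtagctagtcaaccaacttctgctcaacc
Chr2_3314501 nuclear: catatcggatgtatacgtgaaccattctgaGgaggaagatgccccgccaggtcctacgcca
Chr2_3314501 mitochondrial: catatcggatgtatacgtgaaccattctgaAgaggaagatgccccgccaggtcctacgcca
Chr2_3338190 nuclear: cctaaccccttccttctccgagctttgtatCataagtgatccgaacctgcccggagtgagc
Chr2_3338190 mitochondrial: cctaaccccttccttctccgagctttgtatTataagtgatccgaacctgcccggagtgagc
Chr2_3400045 nuclear: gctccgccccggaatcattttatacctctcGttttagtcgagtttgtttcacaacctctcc
Chr2_3400045 mitochondrial: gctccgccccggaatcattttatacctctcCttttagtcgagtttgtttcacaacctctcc

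Each pair differed only at its middle base, and the call in all 5 libraries was the mitochondrial base. The first site aligned to 2 mitochondrial stretches and the other 4 sites to 1. The first pair lies at chr2:3438313-3438373, outside any annotated gene, 399 bases from the coding gene AT2G07722. The second lies at chr2:3498429-3498489, inside AT2G07662 but outside its coding sequence. The third, at chr2:3314471-3314531, and the fourth, at chr2:3338160-3338220, lie in the noncoding RNA genes AT2G00460 and AT2G05235. The fifth lies at chr2:3400015-3400075, 752 bases from the coding gene AT2G07642. In the RefSeq mitochondrial sequence the first aligned stretch is at 195348 to 195408 on the minus strand and the third at 332593 to 332653 on the plus strand. None of the 5 sites falls in an annotated coding, rRNA or tRNA stretch of the mitochondrial sequence.

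The reads at these sites show both bases, in unequal numbers. At the first site, A3438343C (nuclear reference base, position, called base), the depth was 566 reads in the library with the rdr1 rdr2 rdr6 label, 793 in 2-69, 521 in 2-20, 419 in 3-72 and 560 in 3-75. Of the high-quality reads, 35, 26, 28, 13 and 14 carried the nuclear base in the same order. The mitochondrial base therefore took 93.7% to 97.5% of the reads, and the depth was 16.2 to 24.6 times the library median at the calls of chromosomes 1 to 5. At G3314501A the mitochondrial base took 88.3% to 95.3% of the reads, at 8.57 to 16.4 times the library median. Every library gave these sites as homozygous although each held reads for the nuclear base.

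Across the insertion the calls matched the list of differences almost exactly. The 5 libraries made 901 calls in the aligned part, and 895 of them lay at 1 of the 185 differing positions. All 895 called the base of the mitochondrial sequence, which is 99.3% of the insertion calls (Wilson 95% interval 98.6 to 99.7). By position, 178 of the 185 differences (96.2%, interval 92.4 to 98.2) were called in all 5 libraries.

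The 7 differences not called throughout can be named. Positions 3275327 to 3275330, where 4 bases in a row differ, were called in none. T3244498G was called in 2 libraries at depths of 21 and 23, and 2 further differences at 3482853 and 3482926 were called in 1 and 2 libraries at depths of 16 to 29. A missing call may be a site without reads, since the files list called sites only.

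The 6 insertion calls that lie at no difference fall on 3 positions, each called in the library with the rdr1 rdr2 rdr6 label and in 2-20 and in no other library. G3250999A took 23.3% to 27.5% of reads at depths of 87 and 111. A3495992G took 40.7% to 52.4% at depths of 363 and 366, and G3496006A took 39.0% to 45.9% at depths of 315 and 335. Both of the last lie in AT2G07739, a gene annotated as a Ycf1 protein, the family of a chloroplast-encoded protein. They fall in a stretch of 939 bases that aligned to the chloroplast sequence at 97.1% identity, and the called base is the chloroplast base at both.

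By library median, the reads at insertion calls were divided between the bases in a similar way across libraries. Single sites varied more, as given below. The median count of reads for the nuclear reference base was 24 in the library with the rdr1 rdr2 rdr6 label, 29 in 2-69, 17 in 2-20, 11 in 3-72 and 16 in 3-75. Set over the median of high-quality reads at the other calls of chromosomes 1 to 5, this was 0.727, 0.829, 0.739, 0.688 and 0.762. The nuclear base was thus read at somewhat under this nuclear level in each library. The level depends on the calls used as denominator. With calls on chromosome arms alone, the depth ratio of insertion calls was higher, as given in the last section. The read ratios here were not recomputed that way.

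The mitochondrial base at the same calls was read far more often. Its median count was 68, 84, 60, 44 and 71 reads in the same order of libraries, or 2.06, 2.40, 2.61, 2.75 and 3.38 times the same nuclear level. Calls on the mitochondrial contig had medians of 59, 72, 54, 38 and 59 reads for the called base, or 1.79, 2.06, 2.35, 2.38 and 2.81 times that level, and 0 reads for the reference base. The libraries stand in the same order in both places, lowest in the library with the rdr1 rdr2 rdr6 label and highest in 3-75. With 5 libraries no correlation is given.

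**Figure D1:**
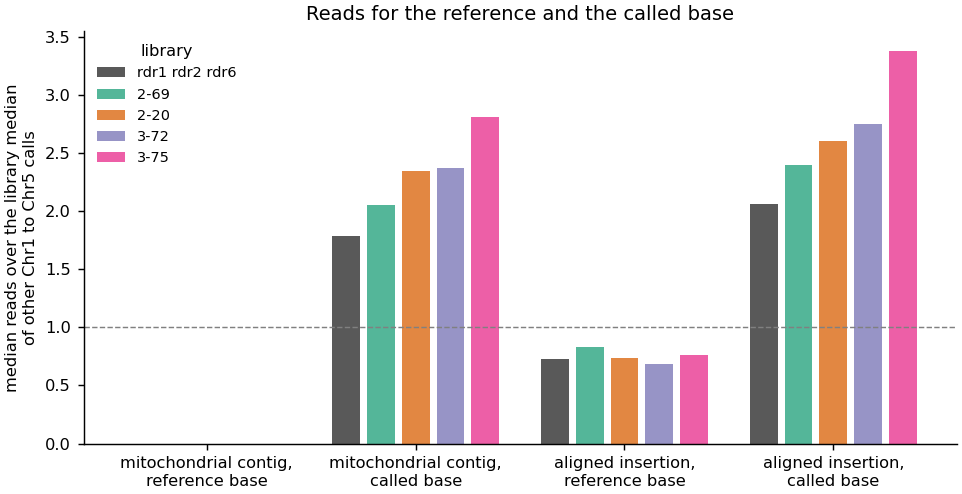
Median number of high-quality reads for the reference base and for the called base at mitochondrial and insertion calls, divided by the median of high-quality reads at the calls of chromosomes 1 to 5 outside the window, 1 bar per library. The dashed line is a ratio of 1. Reference-base bars are at 0 on the mitochondrial contig and between 0.688 and 0.829 in the insertion, and called-base bars run from 1.79 to 3.38.

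As a share of the reads at a call, the mitochondrial base had a median of 73.9% in the library with the rdr1 rdr2 rdr6 label, 75.0% in 2-69, 78.6% in 2-20, 80.2% in 3-72 and 81.2% in 3-75. Over the 4 lines this was 78.8% ± 2.73 (SD, n = 4). The middle 50% of insertion calls lay between 65.9% and 80.7% in the library with the rdr1 rdr2 rdr6 label, and between 75.7% and 88.3% in 3-75. Neighbouring libraries in this order overlapped over most of that range. On the mitochondrial contig the median was 100% in every library.

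**Figure D2:**
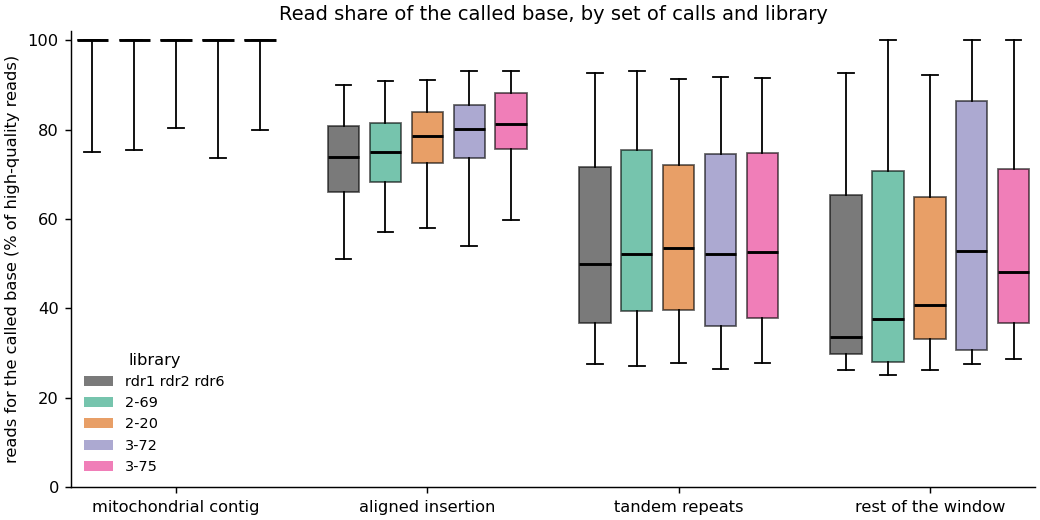
Reads for the called base as a percentage of high-quality reads, by set of calls and library. Boxes span the middle 50% of the calls with the median as a line, and whiskers the 5th to 95th percentiles. Mitochondrial medians are at 100%, insertion medians between 73.9% and 81.2%, and tandem-repeat medians between 50% and 53.5%.

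The genotypes given by the caller differed between the places in the same way. On the mitochondrial contig 134 of 144 calls were homozygous in the library with the rdr1 rdr2 rdr6 label (93.1%, Wilson 95% interval 87.7 to 96.2). The 4 lines had 140 of 149, 140 of 148, 131 of 141 and 138 of 147, or 93.8% ± 0.696 (SD, n = 4). In the insertion 58 of 181 calls were homozygous in the library with the rdr1 rdr2 rdr6 label (32.0%, interval 25.7 to 39.2). Homozygous calls in 2-69 were 70 of 178, in 2-20 they were 71 of 182, and in 3-72 and 3-75 they were 77 and 99 of 180, or 44.0% ± 7.51 (SD, n = 4). Among the calls of chromosomes 1 to 5 outside the window 17.8% were homozygous in the library with the rdr1 rdr2 rdr6 label, and 21.8% ± 3.25 over the lines (SD, n = 4). Heterozygous calls were thus more common there than in the insertion in each library. Intervals cover counting error only, and reads may include copies made by PCR.

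The same insertion site often had a different genotype in different libraries. Of the 178 sites, 38 were homozygous in all 5 libraries, 51 were heterozygous in all 5, and 89 (50%) differed. In the library with the rdr1 rdr2 rdr6 label the mitochondrial base took at least 74.5% of the reads at homozygous sites and at most 80.3% at heterozygous sites. In 3-75 the same limits were 77.3% and 82.6%. The genotype thus followed the read share, but the classes overlapped between these limits. In 3-75 the median share of insertion calls, 81.2%, lay within the overlap.

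A homozygous insertion call was not a call without reference reads. Homozygous insertion sites held a median of 20 reads for the nuclear base in the library with the rdr1 rdr2 rdr6 label, 27 in 2-69, 15 in 2-20, 10 in 3-72 and 14 in 3-75. Their median depth was 142, 169.5, 106, 72 and 113 reads, against 84, 105, 71, 48 and 71 at heterozygous sites. Of the homozygous insertion calls, 2.02% to 3.45% had no reference read, while 88.5% to 93.3% of the homozygous mitochondrial calls had none.

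The insertion calls without a reference read were the same 2 sites in every library. T3386984G had depths of 36, 55, 45, 27 and 33 reads, and A3441856G of 52, 48, 51, 29 and 43, in the order of libraries used above. All high-quality reads carried the called base at both. Their depth was 1.03 to 1.88 and 1.30 to 2.13 times the library median, at the low end for the insertion. These sites were picked out after their values were seen.

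Depth along the insertion was uneven, and uneven in the same places. Over the sites, the median over libraries of depth against the library median ran from 1.24 at A3304164G to 21.7 at A3438343C. In steps of 50 kb from the first aligned base, 2-69 had medians of 3.27, 4.58, 3.91, 2.70, 2.89 and 2.91. In 3-75 they were 4.26, 4.83, 4.20, 3.39, 3.17 and 3.28. In both libraries the step from 50 to 100 kb was the deepest, and the later 3 steps were lower than the first 3. Over the 178 sites the rank correlation of depth between 2 libraries was 0.82 to 0.93 in the 10 pairs, and that of the read share 0.62 to 0.78. Sites share libraries and neighbouring reads, so these are descriptions.

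**Figure D3:**
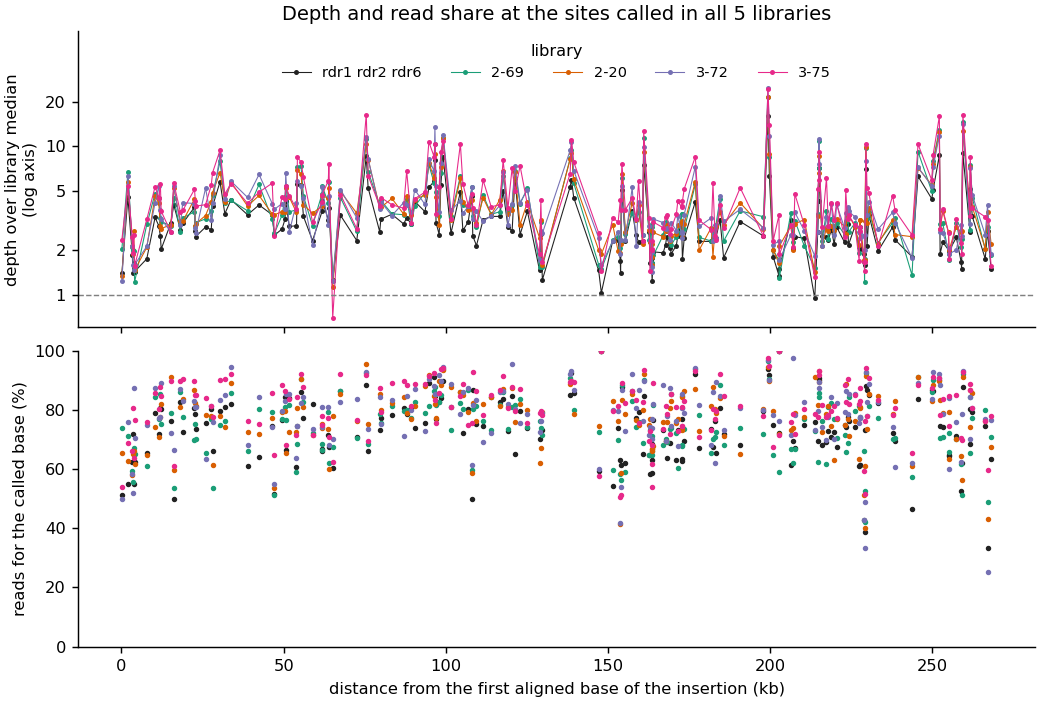
Depth over the library's median depth at calls of chromosomes 1 to 5 (top, log axis) and share of reads for the called base (bottom) at the 178 insertion sites called in all 5 libraries, against distance in kb from the first aligned base. Peaks and troughs of depth fall at the same distances in the 5 libraries, and most shares lie above 60%.

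The depth spread came more from 1 base than from the other. The interquartile range over the median was 0.467 to 0.614 for reference-base reads and 0.575 to 0.768 for called-base reads, and the second was larger in each library. Over the sites, counts of both bases had a rank correlation of 0.29 to 0.36. At 10 of the 178 sites the window aligned to 2 mitochondrial stretches. Their median depth was 2.80, 3.93, 3.85, 4.56 and 3.70 times the library median in the order of libraries used above, and 2.69, 3.26, 3.21, 3.41 and 3.96 times at the other 168. It was higher at the 10 sites in 4 libraries and lower in 3-75. Their median share was 74.2%, 75.4%, 79.6%, 78.8% and 78.1%, and that of the others 74.1%, 75.0%, 78.7%, 80.5% and 81.4%.

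Few calls lay near the edges of the insertion. The first call inside, A3239165G, lies 127 bases from the first aligned base and had depths of 49, 75, 32, 21 and 54 reads with shares of 50% to 74.0%. The second, G3241020C, reached depths of 108 to 247. The nearest calls before the insertion, A3230320G and T3230535C, lay 8718 and 8503 bases from the first aligned base and had depths of 13 to 50 and shares of 28.9% to 53.1%. On the far side the last 2 insertion sites, G3506053A and T3507157C, had depths of 32 to 105. The next call, T3509766C, came 1 base after the last aligned base, in 1 library at depth 26, and the one after, C3534990T, 25225 bases from it.

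At the edges of the window itself the depth was ordinary. The first calls inside, A3201598T and C3224111A, were homozygous in all 5 libraries with 100% of reads and depths of 7 to 38. The last inside, C3693702T, was homozygous in all 5 at depths of 7 to 28, and A3697104G was called once at 27.3%. Just outside lay G3187064C, T3189221A, C3701165G and C3701276T, each in 1 library at depths of 6 to 23.

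Protein-coding genes are annotated over the insertion. Of the 178 sites called in all 5 libraries, 61 lie in a protein-coding gene of chromosome 2 and 31 in its coding sequence. Read as changes of the annotated protein, each base on its own, 22 of the 31 are missense and 9 synonymous, with 0 stop codons gained or lost. The called base is that of the mitochondrial sequence, so these describe how the annotated nuclear copy differs from it. Over the whole window 27 genes had a call in the coding sequence, 25 of them in the insertion. Of these 25, 16 are annotated as an uncharacterized protein. The other 9 have a product name, among them the Ycf1 protein above and a Rubisco large chain domain protein (AT2G07732), whose families are known from the chloroplast genome.

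AT2G07715, annotated as a nucleic acid-binding OB-fold-like protein, had the most called coding positions in the insertion, with 4. Of these, 3 lie at rpl2, which encodes a protein of the large mitochondrial ribosome subunit. T3411699C and T3411700C are neighbours and were heterozygous in every library, with shares of 62.9% to 80.5%. Alone, T3411700C reads as L174S and T3411699C as synonymous in the same codon. The mitochondrial sequence has both changes, and read together they turn this leucine codon into a proline codon. A3411986G, a synonymous change, had shares of 76.8%, 84.5%, 84.5%, 85.4% and 81.1% in the order of libraries used above.

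ABCI4 (AT2G07681), annotated as a cytochrome c assembly protein, had 3 called positions, all missense. A3290780G reads as S564G and lies at ccmC, a mitochondrial gene for maturation of cytochrome c. Its depths ran from 45 reads in 3-72 to 134 in 2-69, and 16, 24, 29, 6 and 17 reads were for the nuclear base in the order of libraries used above. The share was 83.8%, 81.5%, 72.6%, 85.4% and 83.7%. All 5 libraries thus held a minority of nuclear-base reads at this codon.

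AT2G07777, annotated as mitochondrial ATP synthase subunit 9, had 3 called positions. G3251022T and T3251286G, called in all 5 libraries, read as A175E and K87T, and G3250999A, called in 2, as R183W. AT2G07695, annotated as a cytochrome c oxidase subunit II-like protein, had 2 called positions. T3347349G, read as S133R, was homozygous in all 5 libraries with shares of 80.2% to 92.7%, and the synonymous T3347094G was heterozygous in all 5 with shares of 50% to 75.7%. AT2G07773, a cytochrome b-like protein, had G3241020C, read as R214G and heterozygous in all 5.

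The remaining named insertion genes have 1 site each and no described protein. A3257925G lies in AT2G07672 and T3266717C in AT2G07673. A3269423G in AT2G07674 had depths of 202, 293, 160, 149 and 217 reads, 5.77 to 9.43 times the library median, and was homozygous in all 5 libraries. A3272818C in AT2G07676 was homozygous in all 5 with shares of 81.9% to 94.4%.

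Set on the mitochondrial annotation, 15 of the 178 sites lie in coding sequence. This is 8.43% of the sites, while coding sequence makes up 9.05% of the aligned mitochondrial bases. The rate was 0.636 per kb in coding sequence and 0.688 per kb elsewhere. The maturase gene matR, whose product acts in splicing of mitochondrial introns, holds 5 sites, and atp6, for a subunit of ATP synthase, 2. The genes ccmFN1, of cytochrome c maturation, and nad1, nad5 and nad7, of respiratory complex I, hold 1 each. All 5 matR sites were heterozygous in all 5 libraries, and their depth, as the median over libraries, was 1.62 to 2.71 times the library median.

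The kind of substitution was not used to choose the calls, so its share was compared between sets of calls by tests. G/C to A/T changes were a lower share of the calls at both places than of the calls of chromosomes 1 to 5 outside the window. On the mitochondrial contig they were 13.2% in the library with the rdr1 rdr2 rdr6 label (19 of 144), against 21.8% of its other calls (two-sided Fisher's exact test, Benjamini-Hochberg adjusted p = 0.0135 over 10 tests). In the lines they were 13.4% in 2-69, 14.9% in 2-20, 15.6% in 3-72 and 13.6% in 3-75, against 34.1%, 32.2%, 38.0% and 29.6% of the other calls. The adjusted p of these 4 exact tests ran from 2.05e-08 to 1.09e-05.

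In the window the share was 14.2% in the library with the rdr1 rdr2 rdr6 label (adjusted p = 0.000118, Fisher's exact test). It was 13.1% in 2-69, 15.2% in 2-20, 14.1% in 3-72 and 13.2% in 3-75, with adjusted p from 1.22e-25 to 2.32e-14. The share was lower in 5 of 5 libraries at both places, with the window taken whole. The difference of set minus other calls was -8.58 and -7.62 percentage points in the library with the rdr1 rdr2 rdr6 label. Over the 4 lines the window calls lay at 13.9% ± 0.975 and the other calls at 33.5% ± 3.52 (SD, n = 4). The parts of the window differed. The share was 8.33% to 9.39% in the insertion, 15.1% to 18.2% in the tandem repeats described below and 14.3% to 32.6% in the rest of the window. In 2-20 the rest of the window, at 32.6% (14 of 43), was not below the calls outside the window (32.2%). The repeats and the rest of the window were not tested on their own. Most calls at these places are common to the libraries, so the tests are not independent of each other, and calls within a library are linked. At 895 of the 901 insertion calls the kind of change is set by the difference between 2 reference sequences. Outside the window 56.2% of the variants were of 1 library. The tests thus compare unlike sets of calls, and how the changes arose was not tested.

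The places differed in their other classes. In the insertion 56.4% of the calls of the library with the rdr1 rdr2 rdr6 label were A/T to G/C, and 9.39% G/C to A/T. Transitions were 65.1% ± 0.182 of insertion calls over the lines. On the mitochondrial contig they were 31.8% ± 1.64 (SD, n = 4), and the other 4 classes were common: of the 123 variants called in all 5 libraries, 27 were G/C to T/A, 25 A/T to C/G, 20 G/C to C/G and 10 A/T to T/A. Transitions made up 62.5% ± 1.33 of the calls outside the window.

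**Figure D4:**
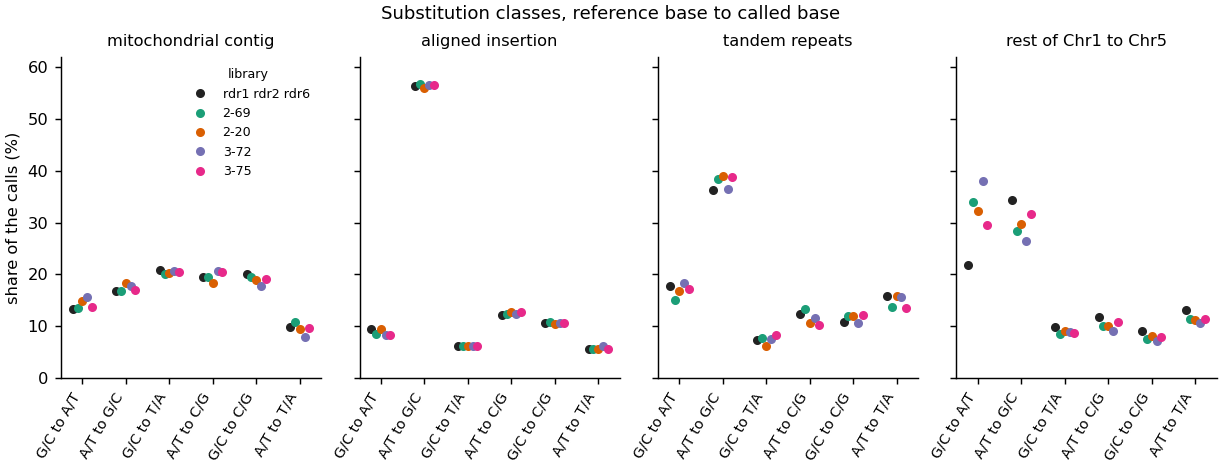
Share of each substitution class, from reference base to called base, in 4 sets of calls, with 1 point per library. G/C to A/T is at 13.2% to 15.6% on the mitochondrial contig and at 21.8% to 38.0% outside the window, and A/T to G/C is the most common class in the insertion.

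Since the called base is the mitochondrial base, the insertion differences can also be read from the mitochondrial to the nuclear base. In that direction 56.7% of the 178 (Wilson 95% interval 49.4 to 63.8) are G/C to A/T, and 15 are A/T to G/C. Of the former, 35 lie at a mitochondrial CG, 43 at a CHG and 23 at a CHH cytosine. CG, CHG and CHH make up 16.6%, 16.4% and 66.9% of the aligned mitochondrial cytosines. The differences thus came to 1.81 per 1000 CG cytosines, 2.25 per 1000 CHG cytosines and 0.295 per 1000 CHH cytosines. These counts compare 2 reference sequences at called sites, and which sequence changed was not tested.

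The mitochondrial calls themselves were spread over the whole contig, which is 366.924 kb long per the file headers. The 160 called positions ran from 11749 to 365135, with 13 to 30 in each full step of 50 kb. Their density was 0.436 per kb. The RefSeq mitochondrial sequence is 367.808 kb long, so the positions are those of the authors' contig and are not given a gene.

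Mitochondrial depth varied more than that of the insertion. Depth at a call ran from 2 to 651 reads, while insertion calls had 16 to 793. Mitochondrial medians were 64 in the library with the rdr1 rdr2 rdr6 label, 80 in 2-69, 59 in 2-20, 43 in 3-72 and 63 in 3-75. Against the library median these were 1.83, 2.16, 2.46, 2.53 and 2.74, or 2.47 ± 0.239 over the lines (SD, n = 4). The insertion had 2.71, 3.28, 3.33, 3.41 and 3.96, or 3.5 ± 0.311. Insertion medians were higher than mitochondrial medians in each library, but the upper quartile of depth was higher on the mitochondrial contig in each. It was 154, 207, 151.5, 118 and 133.5 reads there, and 128, 167.75, 108.75, 79 and 126.75 in the insertion, in the same order of libraries. Of the mitochondrial calls 22, 21, 17, 21 and 20 had under 10 reads, and of the insertion calls 0 in each library. Mitochondrial variants kept their rank of depth between libraries, with a rank correlation of 0.94 to 0.99 in the 10 pairs of libraries.

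Of 6 variants among the deepest called in all 5 libraries, 5 carried the called base alone. C353878A had depths of 372, 646, 348, 247 and 509 reads, A21202T of 342, 535, 301, 247 and 447, and T283901G of 344, 439, 335, 249 and 318. A14666C and G23776C had depths of 236 to 383 and of 200 to 471. These 5 were homozygous in every library with 0 high-quality reads for the reference base. G16169A, at depths of 254 to 488, was also homozygous in every library, yet held 14 to 38 reference reads and a share of 87.3% to 94.3%.

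Homozygosity held across the libraries for most of the contig. Of the 123 variants called in all 5 libraries, 112 were homozygous in all 5. Over the 166 variants, 19 were heterozygous in at least 1 library that called them, and 7 of these in each library that called them. Of the 11 others called in all 5, 2 were heterozygous in all 5, and 9 differed. T105516G had 64.5%, 47.9%, 75.6%, 48.4% and 52.9% of reads at depths of 109, 73, 87, 65 and 52. C217646A had 58.1% to 80.0% at depths of 19 to 50.

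The heterozygous mitochondrial calls of highest depth were of mixed kinds. A365135T, near the end of the contig, was called in 3 libraries at depths of 570, 607 and 598 with shares of 49.8%, 50.5% and 37.8%. G249567C, G302005T and C280463A, at depths of 80 to 209, had shares of 71.9% to 89.0% and were homozygous in some libraries and heterozygous in others. G105449A and G105497T lie close to T105516G. At G105497T, 2-20 alone was homozygous, at 82.6%, with 51.9% to 70.4% in the other 4 libraries.

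Mitochondrial calls stood close together. Within a library 31.2% to 34.7% of them had another call within 2 bases, while 1.10% to 1.12% of insertion calls had. Among variants called in all 5 libraries, 14 pairs lay at adjacent positions, and all 28 variants of these pairs were homozygous in every library. In 3 pairs the called bases are the reference pair reversed, as at C208098G and G208099C, with depths of 205 to 392. In 4 the called bases are the reverse complement of the reference pair, as at G23776C and G23777C.

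Sharing between libraries differed between the places. Of the mitochondrial variants 123 of 166 (74.1%, Wilson 95% interval 66.9 to 80.2) were called in all 5 libraries, and of the insertion variants 178 of 184 (96.7%, interval 93.1 to 98.5). Outside the window 2541 of 15158 (16.8%, interval 16.2 to 17.4) were. The rule of choice did not use sharing, but it was known when the places were chosen, so no test is given. Variants of 1 library were 13 on the mitochondrial contig, 1 in the insertion and 8522 (56.2%) outside the window.

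**Figure D5:**
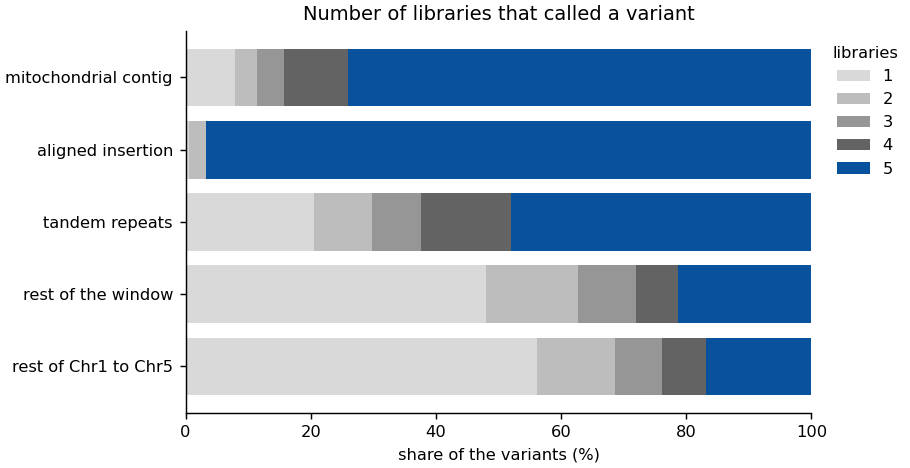
Share of variants called in 1 to 5 libraries, in 5 sets of calls. Variants called in all 5 libraries are 96.7% of the insertion, 74.1% of the mitochondrial contig, 48.1% of the tandem repeats, 21.3% of the rest of the window and 16.8% of the rest of chromosomes 1 to 5.

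Of the 13 mitochondrial variants of 1 library, 6 listed 2 called bases at a position where the other 4 libraries listed the first of them alone. C356546A,G in 3-75 had 198 reads, A189636T,G in 3-72 had 151 and G319715C,T in 2-69 had 117, each with 0 reference reads. Keyed by position alone, 129 of 160 mitochondrial positions (80.6%) were called in all 5 libraries. The other single-library calls had low quality or shallow depth in part: 5 of the 13 had at most 3 reads.

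Outside the insertion, most window calls lay in tandem repeats. Bins of 1 kb that match themselves at a fixed lag held 308 of the 567 window variants, between chr2:3605732 and 3697104. That definition was made after the calls were seen. The lag was 178 bases or its double in 20 bins and 194 bases or its double in 24. The remaining 75 window variants lay in neither the insertion nor the repeats.

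Tandem-repeat calls had a median read share of 50% in the library with the rdr1 rdr2 rdr6 label and 52.1% to 53.5% in the lines, and 21.8% ± 2.65 were homozygous over the lines (SD, n = 4). They held the deepest calls of the window. A3626350G had depths of 5526, 6822, 4444, 2763 and 3888 reads, 158 to 185 times the library median, with shares of 59.7% to 66.5%, and was heterozygous throughout. G3616658C had 2708 to 6598 reads with shares of 39.9% to 45.2%. G3619921A and G3621275A, at 1205 to 3017 reads, were homozygous throughout with shares of 90.4% to 97.0%. G3625316A and A3607247G, at 800 to 2612 reads, had shares of 33.6% to 47.9%.

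The repeats of 178 bases carried this depth. Their median depth was 3.88 to 4.77 times the library median, and that of the repeats of 194 bases 0.824 to 1.71 times. Read direction was uneven at several deep sites: at G3621275A 1.36% to 2.82% of the called-base reads were forward, and at G3619921A 82.9% to 87.9%. Whether that has a part in these calls was not tested.

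The genes with most called coding positions in the window lie in these repeats, and both are annotated as uncharacterized proteins. AT2G08986 (chr2:3618058-3626460) had 61 called coding positions, 41 of them in all 5 libraries, and AT2G07981 (chr2:3614986-3617716) had 17, of which 11 in all 5. Of the 61, 48 read as missense, 12 as synonymous and 1 as a stop, A3618691T (K61*), called in 3 libraries at 27.5% to 32.0% of 20 to 44 reads. Median depth at the called coding positions of AT2G08986 was 5.87 to 8.07 times the library median. Calls at these coding positions ran from 17 to 2881 reads, so the positions of 1 gene differ widely. The deeper A3626350G lies within the span of this gene but outside its coding sequence.

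The calls of the window outside both insertion and repeats were few. They numbered 36 in the library with the rdr1 rdr2 rdr6 label and 28 to 43 in the lines, with 8 homozygous in each library. Over the lines 22.9% ± 4.17 were homozygous (SD, n = 4), within 1 SD of the 21.8% in the repeats. Their median depth was 1.31 to 1.54 times the library median, and the median read share 33.6% to 52.8%. Of the 75 variants 16 were called in all 5 libraries and 36 in 1.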

How the data were processed

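Genomic DNA of rosette leaves was sequenced as paired reads, per the labels, and for each library the authors deposited a VCF list of single-base calls (format version 4.1 in its header). Calls were made with samtools 0.1.19-44428cd on TAIR10, per the file headers. Bowtie, SAMtools and Bismark appear in the submitters' processing notes, with no version or role. Each call has a quality score made by the authors' caller before deposit, from 3.01 to 222 per the file headers and values, a total depth and counts of high-quality reads for each base. Mapping quality was 20 at every call, no chloroplast call was listed, and call filters are not stated in these sources. Reads that fit several places equally well were placed by the authors' aligner in a way not given in these sources, which bears on every depth and read share over the insertion.

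From the files, depth was set over the library's median at calls of chromosomes 1 to 5, which ran from 17 to 37 reads, and the read share was taken from high-quality reads. The RefSeq mitochondrial sequence was aligned to the window with blastn 2.17.0 (stretches of at least 500 bases and 90% identity; where stretches overlap, the longest gives the base). The reference base of every window call matched RefSeq. Tandem repeats were 1 kb bins whose 2 kb span matched itself at 50% or more of bases at a lag of 100 to 400 bases. Effects were read on the longest coding sequence, each base on its own. Calls listing several bases were classed by the first.

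G/C to A/T shares were compared per library by two-sided Fisher's exact tests, Benjamini-Hochberg adjusted over 10 tests with a threshold of 0.05. Intervals are Wilson 95% intervals. Named items are window genes with called coding positions (up to 12 by number), the 6 deepest window and 6 deepest mitochondrial variants called in all 5 libraries at least 1 kb apart, the 2 calls nearest each window edge, up to 6 mitochondrial variants not homozygous throughout, and up to 6 of 1 library by quality. Exceptions to the alignment and the edges of the insertion were named after their values were seen. The places, lists and rules were chosen with earlier results of these data known. Alternatives were filters on quality and depth, calls outside clusters of 3 within 100 bp, other depth measures and denominators, aligned stretches only, only pericentromeric calls within 3 Mb of approximate centromere positions for comparison, sharing by position, 95% identity, and each line left out in turn. Software was Python 3.11.15 with pandas 2.3.3, numpy 2.4.6, scipy 1.17.1, Biopython 1.88 and matplotlib 3.10.9, and the alignment and test steps were tested on simulated data.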

Additional observations from a re-analysis of the deposited data

Results flagged for a closer look

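A line stood apart from the other 3 in 7 of 60 summary values (12 measures in each of 5 sets of calls), by the gap to its nearest neighbour over the range of the 4 lines (Dixon's 95% limit, which chance passes in about 1 of 20 groups). Line 2-20 had 453 window calls, while the other lines had 431 to 434. The median depth of window calls was 3.61 times the library median in 3-75, and 3.19 to 3.24 times in the other lines. G/C to A/T changes were 9.34% of insertion calls in 2-20 (17 of 182) and 8.33% to 8.43% in the other lines (15 calls in each). The library with the rdr1 rdr2 rdr6 label had 9.39% (17 of 181). Among these changes, G3250999A and G3496006A were called in 2-20 and in that library alone. Calls deeper than 5 times the library median were 35.3% of window calls in 3-75 and 29.95% to 30.5% in the other lines. In 2-20, 4.40% of insertion calls (8 of 182) had under 10% or over 90% of their called-base reads on the forward strand, and in the other lines 3.33% to 3.37%. The last 2 values also rest on few calls, those of the window outside insertion and repeats. Of these, 5.41% in 2-69 had another call within 2 bases (2 of 37) against 0% in the other lines. In 2-20, 25% of the homozygous ones had no reference read (2 of 8) against 37.5% (3 of 8) in the others.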

How the results depend on the processing

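No alternative reversed a result or moved a test across its threshold: all 45 recomputed differences in G/C to A/T share kept their direction and an adjusted p under the threshold. The largest was 0.0275, for the mitochondrial calls of the library with the rdr1 rdr2 rdr6 label against other pericentromeric calls, and that comparison ran from 0.012 to 0.0275 over its alternatives. Of 177 recomputed values 19 moved beyond the spread of the lines, the interval or 1.5 times the count, and the cause was not tested. With chromosome arms as denominator the depth ratio of the lines was 3.22 for mitochondrial, 4.31 for window and 4.55 for insertion calls, and 2.29, 3.57 and 3.39 in the library with the rdr1 rdr2 rdr6 label. With calls of at least the median quality, homozygous calls were 96.2% of the mitochondrial and 38.0% of the window calls of the lines, and 31.3% of the window calls in the library with that label, the window's read share was 75.1% and 70.9%, 89.4% of insertion variants were called in all 5 libraries, and 99.9% of insertion calls had the mitochondrial base. With at least 10 reads, 93.1% of mitochondrial calls were homozygous. Restricted to aligned stretches, the window held 180 calls in the lines on average, 44.0% homozygous, and 181, 32.0% homozygous, in the library with that label. Keyed by position, 80.6% of mitochondrial positions were called in all 5. Leaving out each line moved none of the 56 means beyond the spread or 1.5 times the count. Dropping 1 of 4 values cannot shift a mean by the SD of the 4. Except for counts of calls, this outcome was therefore fixed in advance and says nothing of how firm the means are. The aligned-only test and other repeat identities were chosen after seeing the data. No paired analysis was possible because replicate numbers name lines with 1 library each and pair nothing with the other group. Depth limits what can be said of uncalled sites.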
